A study of Mus musculus with 18 samples.

Results

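In cardiomyocyte-enriched cells of mice with a cardiomyocyte-directed deletion of the histone methyltransferase G9a, 7472 regions had lost the G9a signal. They had also lost the mark that G9a writes, dimethylated lysine 9 of histone H3 (H3K9me2). They were chosen from pairs of regions, 1 from the authors' deposited G9a list and 1 from their H3K9me2 list, that cover each other by at least 50% of the length of each. A pair was kept where, for both targets, the values of both knockout (KO) libraries lay below those of both control (Cre) libraries and the ratio of the means, with 1 added to each, was 0.5 or less. Here "lost" means that rule and "gained" its mirror image (both KO values above both Cre values and a ratio of 2 or more). The 7472 regions are 5.08% of the 146953 pairs on chromosomes 1 to 19 and cover 6024.85 kb. They make up 18.3% of the 40921 pairs in which G9a was lost and 40.9% of the 18249 pairs in which H3K9me2 was lost. Since the rule used the KO and Cre values of G9a and H3K9me2, those values are given as a description, without a test.

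Cardiomyocyte-enriched cell populations of C57BL/6J mice were profiled by chromatin immunoprecipitation and sequencing (ChIP-seq). The control mice (Cre) carried 1 copy of the alphaMHC-MerCreMer transgene, written alphaMHC-MerCreMer +/-, and the KO mice carried the same transgene and G9a flox/flox. The transgene expresses a tamoxifen-activated Cre recombinase from the Myh6 promoter, which is active in cardiomyocytes, so other cells in the preparation would keep G9a. Each target had 2 libraries of each genotype, called biological replicates by the series text, and each genotype had 1 input library, not analysed here. The targets were G9a (antibody Sigma G6919), H3K9me2 (Abcam ab1220), H3K27me3 (Millipore 07-449) and the transcription factor Mef2c (Abcam ab43796). The sources used here do not give age or tamoxifen dosing, and no expression was measured, so the cell type could not be checked against marker transcripts. In such bulk libraries, signal in fewer cells and less signal per cell cannot be told apart.

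G9a, encoded by Ehmt2, works as a complex with its relative GLP and dimethylates H3K9, mostly in silent, gene-poor or lineage-inappropriate chromatin. H3K9me2 is bound by reader proteins, among them GLP and G9a themselves, and other enzymes can also write it. H3K27me3 is the mark of Polycomb repressive complex 2, and Mef2c is a MADS-box factor that binds A/T-rich sites in the control regions of muscle genes and is held in check by class IIa histone deacetylases.

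Most of the regions lay away from gene starts, but 50 RefSeq promoter windows (250 bases before to 50 after a start site), of 45 genes, lay wholly inside one. These windows lay inside the G9a region of the pair. The H3K9me2 region covered only part of some, such as that of Clstn3 below (H3K9me2 region chr6:124462251-124462950). The windows below are examples, named after their values were seen, and do not stand for all 50. They are written 5′ to 3′ on the strand of the gene, from RefSeq for GRCm38.p6, with the CG dinucleotides, the sites of DNA methylation, in capitals. They belong to Gm5373 (chr8:71858068-71858367, minus strand), a predicted gene, Col18a1 (chr10:77113656-77113955, minus strand), the collagen that gives rise to endostatin, and Ccdc144b (chr3:36053498-36053797, minus strand). The others belong to Uts2b (chr16:27370190-27370489, minus strand), which encodes a urotensin peptide, Clstn3 (chr6:124462695-124462994, minus strand), a calsyntenin of synapses, and Col17a1 (chr19:47691993-47692292, minus strand), a transmembrane collagen of skin.
Gm5373: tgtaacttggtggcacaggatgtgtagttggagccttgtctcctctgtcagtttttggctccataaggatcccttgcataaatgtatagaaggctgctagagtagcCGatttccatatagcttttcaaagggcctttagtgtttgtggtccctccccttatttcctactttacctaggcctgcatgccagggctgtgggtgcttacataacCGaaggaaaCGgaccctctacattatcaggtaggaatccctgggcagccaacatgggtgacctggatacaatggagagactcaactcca
Col18a1: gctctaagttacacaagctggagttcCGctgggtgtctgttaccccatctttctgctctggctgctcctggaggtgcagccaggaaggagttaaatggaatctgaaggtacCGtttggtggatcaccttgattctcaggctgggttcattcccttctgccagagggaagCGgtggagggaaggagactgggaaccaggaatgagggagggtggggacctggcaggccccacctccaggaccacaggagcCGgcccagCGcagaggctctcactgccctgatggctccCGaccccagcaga
Ccdc144b: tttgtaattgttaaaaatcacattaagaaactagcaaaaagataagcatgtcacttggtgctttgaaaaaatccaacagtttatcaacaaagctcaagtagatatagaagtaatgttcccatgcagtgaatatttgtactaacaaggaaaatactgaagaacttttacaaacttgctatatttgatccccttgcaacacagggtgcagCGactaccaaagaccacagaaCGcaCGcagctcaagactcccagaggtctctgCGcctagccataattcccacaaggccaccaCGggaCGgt
Uts2b: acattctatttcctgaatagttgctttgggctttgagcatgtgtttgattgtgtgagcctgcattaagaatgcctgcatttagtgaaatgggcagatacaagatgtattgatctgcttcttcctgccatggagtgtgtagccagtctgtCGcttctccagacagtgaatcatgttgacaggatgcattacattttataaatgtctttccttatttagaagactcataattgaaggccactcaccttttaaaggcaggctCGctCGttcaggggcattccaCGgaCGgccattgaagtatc
Clstn3: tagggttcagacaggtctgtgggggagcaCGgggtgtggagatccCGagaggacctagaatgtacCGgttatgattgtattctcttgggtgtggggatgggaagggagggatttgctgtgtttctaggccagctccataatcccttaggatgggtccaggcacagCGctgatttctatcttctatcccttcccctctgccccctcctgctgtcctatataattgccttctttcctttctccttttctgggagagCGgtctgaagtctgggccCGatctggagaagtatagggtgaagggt
Col17a1: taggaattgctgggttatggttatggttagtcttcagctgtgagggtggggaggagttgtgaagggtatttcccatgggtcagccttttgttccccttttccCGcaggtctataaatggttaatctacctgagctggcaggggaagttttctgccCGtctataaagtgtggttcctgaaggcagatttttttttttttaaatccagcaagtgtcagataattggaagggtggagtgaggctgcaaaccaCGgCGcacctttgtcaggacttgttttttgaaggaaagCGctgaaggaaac

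The windows shown held 3 CG dinucleotides for Gm5373, 5 for Uts2b and Col17a1, and 6 for Col18a1, Ccdc144b and Clstn3. Other windows inside lost regions held more, such as that of Il1r1 with 14. Over the 50 windows the median was 5, against 5 over the 994 promoter windows that lay inside any G9a-H3K9me2 pair and 7 over all 31396 windows of the same length. The share of windows with 5 CG or fewer was 54.0% inside the lost regions, 51.6% inside any pair and 43.2% over all windows. The G+C content had a median of 51.7% inside the lost regions, 51.7% inside any pair and 53.0% over all windows. In CG content the promoters in the lost regions were thus like those in other pairs, and both sets had fewer CG than promoters in general. The MEF2 consensus, a palindromic pattern of 10 bases whose search covers both strands, was in none of the 50 windows, in 18 of the 994 (1.81%) and in 973 of all windows (3.10%), which says only that these letters are not in these windows.

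At the promoter of Gm5373 the G9a region (chr8:71856701-71859600) had values of 765 and 1323 in Cre against 526 and 367 in KO. H3K9me2 there was 1451 and 1293 in Cre against 633 and 604 in KO. The promoter of Col18a1 (G9a region chr10:77113551-77115450) had G9a values of 550 and 519 against 246 and 72 and H3K9me2 values of 304 and 524 against 153 and 75. Every KO value was below every Cre value, as the rule requires, and at Col18a1 the second KO value was the lowest for both targets. At Uts2b the G9a values were 271 and 426 in Cre against 77 and 78 in KO, and those of H3K9me2 were 302 and 278 against 130 and 103. At Ccdc144b G9a was 186 and 222 against 81 and 11, and H3K9me2 300 and 152 against 120 and 33. Clstn3 had G9a values of 269 and 159 against 87 and 59 and H3K9me2 values of 126 and 184 against 43 and 19. The Cre libraries differed from each other at these promoters by up to 2-fold, and the KO libraries by more at Ccdc144b, Col18a1 and Clstn3. Col17a1 had the mildest G9a loss of these 6 promoters, with G9a at 288 and 317 against 161 and 132 (log2 ratio -1.04) and H3K9me2 at 174 and 315 against 70 and 87 (log2 ratio -1.63).

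Over all 7472 regions the median G9a value in the authors' deposited list was 153 and 145 in Cre against 57 and 35 in KO. The median H3K9me2 value was 154 and 149 in Cre against 56 and 57 in KO. Over all pairs the medians were 116 and 111 against 94 and 82 for G9a, and 98 and 88 against 109 and 116 for H3K9me2. The regions therefore went with the general direction of the G9a list and against that of the H3K9me2 list. Of all listed G9a regions 61.5% were lower in KO and 27.1% met the rule for a loss, while 11.8% met that for a gain. Of all listed H3K9me2 regions 39.7% were lower in KO, 13.1% met the rule for a loss and 27.6% that for a gain. Among pairs, H3K9me2 was lost in 18.3% of those with G9a lost and in 10.2% of the 106032 others. The reverse pattern, G9a lost with H3K9me2 gained, was found in 7593 pairs, about as many as the joint loss. In another 25856 pairs G9a was lost with H3K9me2 neither lost nor gained, and in 10777 H3K9me2 was lost without a loss of G9a.

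**Figure D1:**
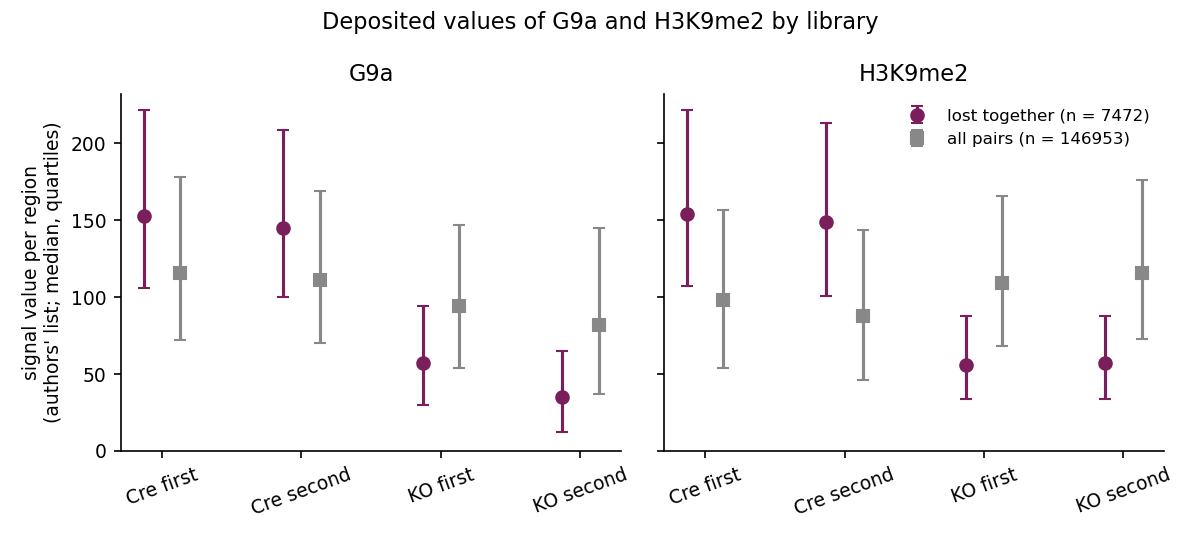
Medians (points) and quartiles (bars) of the deposited G9a values (left) and H3K9me2 values (right) in each of the 4 libraries of a target, for the 7472 regions lost together (circles) and all 146953 pairs (squares). In the regions lost together the KO medians are 57 and 35 for G9a and 56 and 57 for H3K9me2, below the Cre medians by the rule, while over all pairs H3K9me2 medians are higher in KO (109 and 116) than in Cre (98 and 88).

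The median log2 ratio of KO to Cre was -1.50 for G9a, with the 5th and 95th percentiles at -3.18 and -1.04, and -1.31 for H3K9me2 (-2.28 and -1.02). G9a had the lower ratio of the 2 targets in 4726 regions (63.2%), and a ratio of 0.25 or less was reached by G9a in 1738 regions, by H3K9me2 in 697 and by both in 206. The KO libraries of G9a were unequal: the second was below the first in 4873 regions (65.2%) and at 0 in 597, where the first was at 0 in 173. For H3K9me2 the second KO value was below the first in 3649 regions (48.8%), and 63 and 60 values were 0. Across the 7472 regions the log2 ratios of the 2 targets correlated weakly (Pearson's r = 0.099), less than over all pairs (r = 0.295). Signal per kb in the Cre libraries correlated at r = 0.173 between the targets. Between the Cre libraries of 1 target, r was -0.485 for G9a and -0.481 for H3K9me2, so that a region high in one Cre library tended to be low in the other, against 0.146 and 0.078 over all pairs. These are descriptions across regions that share their libraries, and the lists hold no region with a mean under 105 per kb.

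The regions were short, and their mean signal over the 4 libraries was near that of all pairs. Their G9a regions had a median length of 750 bp (350 to 6450), and 316 (4.23%) were longer than 1500 bp. The median length of the H3K9me2 regions was also 750 bp, and the overlap had a median of 550 bp, 62.5% of the stretch covered by either. Both boundaries were identical in 128 pairs, and 1701 shared at least a start or an end. The mean signal over the 4 libraries, per kb, had a median of 134.5 for G9a and 142.3 for H3K9me2, against 142.9 and 144.3 over all pairs. That mean includes the KO values, which the rule holds low. In Cre the median values per region were 153 and 145 for G9a, against 116 and 111 over all pairs. For H3K9me2 they were 154 and 149, against 98 and 88. The authors' -log10 p, their own measure of the KO-Cre difference, had a median of 11.7 for G9a and 9.71 for H3K9me2 and reached 271 and 129.

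Which regions met the rule depended on the settings. Leaving out the second Cre value gave 14050 regions, of which 5429 were among the 7472, and leaving out the first KO value 14274, of which 4709 were. Without the first Cre value 4820 of the 7472 were found again, and without the second KO value 3669. Scaling the libraries of each target to the same median shifts the median log2 ratio by 0.32 for G9a and by -0.29 for H3K9me2. The rule then found 8574 regions, and 4704 of them were among the 7472. Just inside the ratio threshold were regions such as chr1:5172901-5173550, 9.688 kb from Atp6v1h, with H3K9me2 values of 129 and 95 against 52 and 59. Just outside was a region in the span of Gli2, a transcription factor of Hedgehog signalling (chr1:118839151-118841250), with G9a values of 410 and 355 against 310 and 72 and H3K9me2 values of 207 and 340 against 127 and 87. Values on either side of the threshold were alike.

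The region with the highest smaller -log10 p of the 2 lists was also the longest, chr7:11568501-11574950. It lay 94.649 kb from the nearest protein-coding gene, Vmn1r72, a vomeronasal receptor. Its G9a values were 2986 and 2493 in Cre against 831 and 584 in KO, and its H3K9me2 values 3031 and 1958 against 1187 and 911. It was the strongest of a run of 6 regions lost together, each at most 20 kb from the next (chr7:11528601-11576450), the run with the most regions. The run with the next most, 5, lay on chromosome 17 (chr17:13404951-13456500) near Tcp10c, a gene of the t-complex testis-expressed family. Its longest region (chr17:13404951-13408950, 27.728 kb from Tcp10c) had G9a values of 824 and 1588 against 493 and 246 and H3K9me2 values of 722 and 1102 against 383 and 293. Another of that run (chr17:13450301-13453750) had G9a values of 983 and 1404 against 290 and 150 and H3K9me2 values of 460 and 1366 against 238 and 253. There the Cre libraries differed from each other for H3K9me2 by nearly 3-fold, and both KO values lay below both. Runs were rare: of 6894 runs, 6364 were single regions, 490 held 2 and 40 held 3 or more.

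Inside or near genes, the region with the highest smaller -log10 p was in Muc3, a mucin of epithelia (chr5:137149401-137153450). Its G9a values were 3214 and 1410 in Cre against 1103 and 130 in KO, and its H3K9me2 values 636 and 922 against 241 and 102. Gm7827, a predicted protein-coding gene, had G9a values of 1340 and 1494 against 551 and 235 and H3K9me2 values of 1001 and 1414 against 453 and 603 (chr8:71130151-71133650). In both genes the second KO library had the lower G9a value. In another region of Gm5373 (chr8:71823151-71824750) G9a was 615 and 656 against 271 and 23, and H3K9me2 669 and 923 against 183 and 362. Prkcb, a protein kinase C, held a region (chr7:122512601-122513950) with G9a values of 269 and 300 against 126 and 8 and H3K9me2 values of 548 and 259 against 94 and 154.

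Some others of the 12 regions near genes that rank highest by that measure, which favours long regions with high values, had lower ratios and KO values near 0. St6galnac3, a sialyltransferase, had G9a values of 143 and 134 in Cre against 8 and 1 in KO, and H3K9me2 values of 254 and 271 against 24 and 19 (chr3:153631451-153632100). Zscan5b, a SCAN-domain zinc finger gene, had G9a values of 241 and 340 against 115 and 1 and H3K9me2 values of 172 and 161 against 10 and 2 (chr7:6232051-6233200). At Gdpd4, a glycerophosphodiesterase gene, G9a was 298 and 123 against 6 and 19, and H3K9me2 180 and 117 against 12 and 6 (chr7:97961301-97962150). In these 3 genes little signal of either target was left in at least 1 KO library. Col23a1, a transmembrane collagen, had G9a values of 667 and 316 against 178 and 112 and H3K9me2 values of 245 and 321 against 16 and 50 (chr11:51416701-51418950). Vit, an extracellular matrix protein, had G9a values of 283 and 139 against 54 and 12 and H3K9me2 values of 135 and 264 against 13 and 12 (chr17:78575601-78576500). The contactin-associated genes Cntnap4 and Cntnap5c completed these 12, with log2 ratios of -2.16 and -1.42 for G9a and -1.67 and -1.41 for H3K9me2.

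The lowest ratios were ranked among the 3780 regions with all Cre values at least 100. They were reached where KO values were 0 or close to it, and there the fold depends on the pseudocount. The region chr17:39983601-39984450, 28.314 kb from Esp38, had G9a values of 271 and 160 and H3K9me2 values of 173 and 150 in Cre, and 0 in all 4 KO libraries. In 2 of the 7472 regions all 4 KO values were 0. The region chr12:110348601-110349450, 67.504 kb from Dio3, the imprinted thyroid hormone deiodinase gene, had G9a values of 243 and 223 against 0 and 0, but H3K9me2 values of 181 and 161 against 141 and 21. There H3K9me2 stayed close to the Cre level in the first KO library. In Lgi2, a secreted synaptic protein gene, the order was the other way round: H3K9me2 was 121 and 107 against 1 and 0 while G9a was 133 and 147 against 79 and 17 (chr5:52557901-52558650).

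The joint losses were spread over the genome. The share of pairs lost together ran from 4.09% on chromosome 5 to 5.89% on chromosome 11, and 2254 of 2413 windows of 1 Mb that held a pair held at least 1 such region, with a median of 3. The densest window was on chromosome 8 (87 to 88 Mb) with 14 of 107 pairs, some of them in Zfp423, a zinc finger gene of fat and cerebellar development. Next came chromosome 7 (136 to 137 Mb) with 13 of 82 pairs, some of them in Mgmt, a DNA repair gene. On chromosome 7 the window from 11 to 12 Mb, which holds the strongest region, had 12 of 80. Ehmt2 itself (chr17:34898463-34914073) was touched by 0 of the regions, though listed regions in it went in both directions. For G9a 1 region was at 410 and 353 in Cre against 67 and 106 in KO. Others were at 157 and 75 against 73 and 74 and at 123 and 174 against 175 and 246. For H3K9me2 1 region was higher in KO, at 108 and 64 against 322 and 181. The other H3K9me2 regions had a lower mean in KO. Their values were 452 and 77 against 213 and 135, 157 and 125 against 31 and 114, and 117 and 62 against 77 and 5. Of the 7472 regions 162 (2.17%) lay within 25 Mb of Ehmt2, against 2.15% of all pairs.

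Of the 7472 regions 2654 (35.5%) touched the span of a protein-coding gene, against 32.2% of all pairs, 36.9% of the pairs with H3K9me2 lost but not G9a and 29.4% of the pairs with G9a lost and H3K9me2 gained. Within 2 kb of either end of such a gene lay 468 (6.26%, against 5.30% of pairs), and 102 (1.37%, against 1.20% of pairs and 1.52% of those with H3K9me2 lost but not G9a) touched a promoter window. Spans hold exons and introns alike, and which of these a region touched could not be told from the annotation used here. Of 20661 protein-coding genes, 1906 (9.23%) held a region in their span and 484 (2.34%) had one at an end. The genes with a region had a median span of 93.4 kb, against 17.5 kb for all. The genes with the most regions were long: Dab1, an adaptor of reelin signalling, held 10, and Grid1, Asic2, Rbfox1 and Pcdh15 held 8 each. As a share of the pairs in the gene, these were 9.71% in Dab1 and 10.8% in Rbfox1, and the highest share among the 10 genes with the most regions was 17.1%, in Kcnma1, a calcium-activated potassium channel.

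Sarcomere and fetal genes held none of the regions, and other genes of heart muscle held some. None of 22 sarcomere genes and none of 18 genes of the fetal and hypertrophy-associated programme held a region lost together in the span or at an end, and their spans held only 10 and 5 pairs. Of 21 genes that restrain hypertrophy 1 did, Tsc2, a brake on mTOR signalling, with G9a at 165 and 151 against 16 and 19 (chr17:24629801-24630550). Among 19 calcium-handling genes there were 3. Slc8a1, the sodium-calcium exchanger, had G9a values of 133 and 178 against 17 and 103 (chr17:81414001-81414750). Cacna1c, the L-type calcium channel, held 2 regions, one with G9a values of 108 and 72 against 8 and 25 (chr6:118880051-118880500). Ppp3ca, the catalytic subunit of calcineurin, had H3K9me2 values of 176 and 128 against 30 and 0 (chr3:136912251-136912900). Of 24 channel and junction genes, Kcnq1, Kcnd2 and Ctnna3 held 6 regions. Of 22 genes of fatty acid use and mitochondria, Ppara, Ppargc1a and Cpt1a, which encode regulators and the entry enzyme of fatty acid oxidation, held 1 each. Of 21 cardiac transcription factors, Foxp1 and Zfpm2 held 1 region each, and Irx5 had one 0.445 kb from its end with G9a at 124 and 103 against 24 and 72 (chr8:92361901-92362350). Of 27 autophagy genes, Pik3c3 held 1 region and Ulk2, an autophagy kinase, had one 1.848 kb from its end with G9a at 115 and 79 against 4 and 36 (chr11:61773251-61773750). The shares of genes with a region in the span were 15.8% for calcium handling, 12.5% for channels and junctions, 13.6% for metabolism, 9.52% for the transcription factors and 3.70% for autophagy, against 9.23% of all protein-coding genes. As a share of pairs in the spans the counts were 7.14% for calcium handling, 4.92% for channels and junctions, 5.45% for metabolism, 4.65% for the transcription factors and 3.13% for autophagy, near the 5.57% in all protein-coding spans.

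Genes of the chromatin machinery were read against the 9.23% of all protein-coding genes that held a region and the 5.57% of pairs in all their spans. Of 20 genes of H3K9 methylation 1 held a region, Prdm16, with H3K9me2 at 139 and 132 against 7 and 80 (chr4:154479001-154479350), and of 10 H3K9 demethylases 1 did, Kdm4b. None of 20 Polycomb genes did. As shares of pairs in the spans these were 1 of 50, 1 of 16 and 0 of 18. Of 8 genes for Mef2 factors and class IIa deacetylases the 4 Mef2 genes held none, but Hdac4, Hdac7 and Hdac9, which encode corepressors of Mef2 factors, held 6 of the list's 39 pairs (15.4%). Hdac9 held 4 of them, the strongest (chr12:34061501-34062600) with G9a at 225 and 198 against 125 and 57 and H3K9me2 at 417 and 370 against 126 and 262. At that strongest Hdac9 region Mef2c was also listed and lower in KO, at 262 and 173 against 107 and 60. The other Hdac9 regions had no Mef2c region listed. They lay close together (chr12:34755951-34781250), so these counts are not independent. At Hdac4 (chr1:92016201-92017000) the G9a values were 112 and 179 against 74 and 47, and the Mef2c values 200 and 176 against 88 and 123. At Hdac7 (chr15:97838801-97839350) Mef2c was 51 and 62 against 50 and 14. The Mef2c values of the genotypes did not overlap at these regions of the 3 deacetylase genes. Both KO values lay below both Cre values at 64.9% of Mef2c regions at the regions lost together and 42.7% of the whole list. At Hdac7 the first KO value was next to the first Cre value. By limma the Mef2c log2 difference was -1.40 ± 0.59 (SE) at Hdac9, -0.84 ± 0.54 at Hdac4 and -1.05 ± 1.17 at Hdac7, with adjusted p of 0.399, 0.399 and 0.454, so none passed.

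Among genes known for other tissues, 2 of 18 germline genes had a region at an end, against 2.34% of all protein-coding genes: Dazl, an RNA-binding protein of germ cells, and Sycp1, a part of the synaptonemal complex. Sycp1 (chr3:102817401-102818200) had G9a values of 155 and 199 against 58 and 9. Sycp1, Tdrd6, Piwil1 and Piwil2 each held a region in the span, 4 of the 34 pairs in the germline spans (11.8%, against 5.57% in all spans). Keratin and keratin-associated genes had 11 of 112 genes with a region at an end (9.82%), and 8 of 59 pairs in their spans (13.6%). Keratin genes are neighbours in clusters, so these counts are not independent. Collagen genes held 22 of 302 pairs (7.28%). Of 1104 olfactory receptor genes 19 (1.72%) had a region at an end, of 354 vomeronasal receptor genes 7 and of 388 Zfp genes 8. The 57 clustered protocadherin genes held none of the regions. Pairs were counted once for each gene span they touch, and the spans of these genes overlap, so no share is given. Synaptic genes often held a region (25 of 30), but they are very long, and 85 of their 2122 pairs (4.01%) were lost together.

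Markers of other heart cells held regions at shares of their pairs near the 5.57% of all spans. Of 20 endothelial markers 6 did (6 of 94 pairs, 6.38%), of 20 fibroblast markers 4 held one in the span (5 of 68 pairs, 7.35%) and Mfap5 had one at an end, and of 20 immune markers 2 did (2 of 29 pairs, 6.90%). Of 14 smooth muscle and pericyte markers Cspg4 and Notch3 held one (2 of 47 pairs, 4.26%), and Myh11 had one at an end. Tie1, an endothelial receptor, had a region over its start (chr4:118489151-118490050) with G9a at 226 and 177 against 147 and 10 and H3K9me2 at 386 and 369 against 114 and 183. Ms4a1, the B cell antigen CD20, had G9a at 294 and 367 against 194 and 24 (chr19:11265551-11267100). At both, H3K27me3 was listed with a mean that was higher in KO, but its values overlapped at Tie1 (197 and 99 against 334 and 111), and at Ms4a1 they were 289 and 247 against 416 and 339. Mef2c had a lower mean in KO at both. Its values overlapped at Tie1, at 322 and 196 in Cre against 242 and 69 in KO (log2 ratio -0.73). At Ms4a1 they were 330 and 189 against 144 and 101 (log2 ratio -1.08). At the endothelial factor genes Erg and Fli1 H3K27me3 had a lower mean in KO, at 177 and 129 against 146 and 34 and at 61 and 183 against 124 and 10, with overlap at both. ChIP signal is not expression, and the part of cell composition in these values was not tested.

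H3K27me3 and Mef2c were not used by the rule, and both were mostly lower in KO at the regions lost together. A listed H3K27me3 region with at least 50% reciprocal overlap was found at 1716 regions (23.0%). It was lower in KO at 1443 of them (84.1%), against 64.3% for all pairs with such a region and 63.3% of all listed H3K27me3 regions. The median values were 175.5 and 173.5 in Cre and 99 and 104 in KO, and the median log2 ratio was -0.87, against -0.65 over all pairs. By the rule for a loss H3K27me3 was lost at 629 (36.7%, against 22.6% of the whole list) and gained at 62 (3.61%, against 9.75%). A listed Mef2c region was found at 1901 regions (25.4%). It was lower in KO at 1628 (85.6%), against 64.9% for all pairs and 61.7% of the whole list. Median Mef2c values were 130 and 124 in Cre against 64 and 60 in KO, with a median log2 ratio of -1.06, against -0.76 over all pairs. Mef2c was lost at 925 (48.7%, against 29.2% of the whole list) and gained at 73 (3.84%, against 13.5%). The other 4416 regions (59.1%) had neither listed, and sequence outside the lists has no value.

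The classes of pairs differed in order. H3K27me3 was lower in KO at 76.3% of the pairs with G9a lost and H3K9me2 neither, at 73.7% of those with H3K9me2 lost but not G9a, at 69.0% of those with G9a lost and H3K9me2 gained, and at 57.6% of the remaining pairs. For Mef2c the shares were 78.2%, 76.2%, 68.3% and 57.9%. For both targets, the pairs with joint loss had the highest share and the pairs with opposite changes stood below those in which a single target was lost. Where all 4 targets were listed (561 regions), H3K27me3 and Mef2c were both lower in KO at 404 (72.0%, against 48.6% of such pairs in all), both lost at 129 (23.0%, against 9.65%) and both higher at 15 (2.67%). No test over regions was made, since neighbouring regions are not independent. The sources used here do not say whether the 4 targets were profiled from the same mice.

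**Figure D2:**
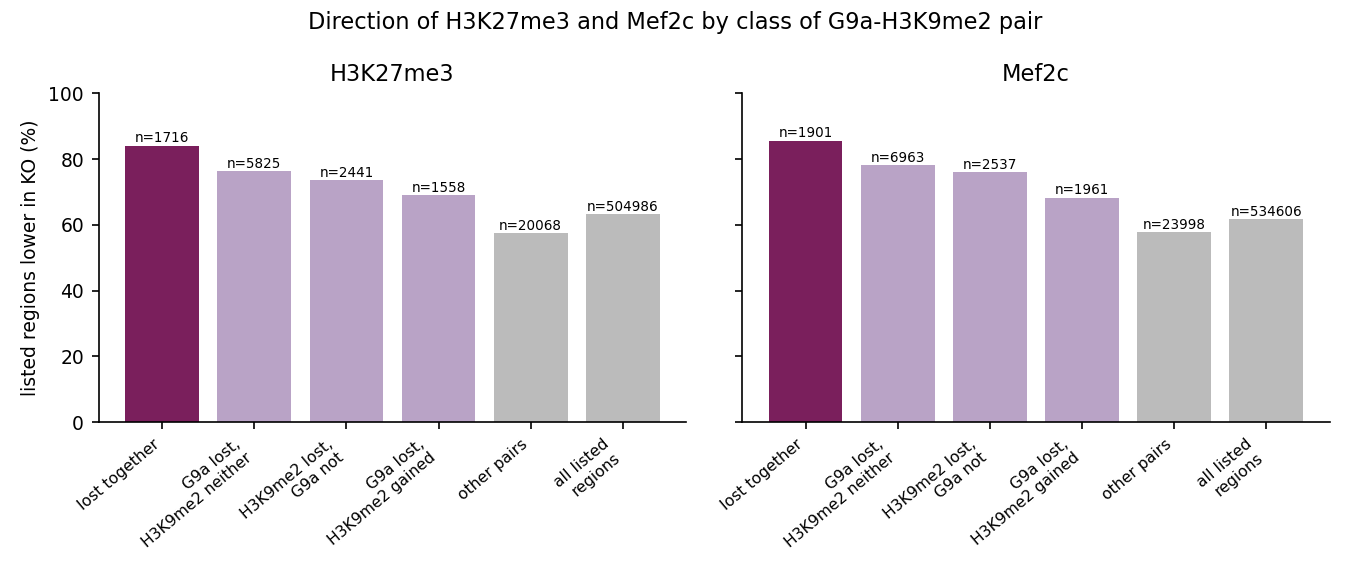
Share of listed H3K27me3 regions (left) and Mef2c regions (right) with a lower mean in KO than in Cre, by class of the G9a-H3K9me2 pair they overlap and over the whole list, with the number of regions above each bar. The regions lost together stand highest (84.1% and 85.6%) and the remaining pairs lowest (57.6% and 57.9%).

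The excess was spread over the genome. On each of the 19 chromosomes the share lower in KO was higher at the regions lost together than at the other pairs, from 77.4% to 88.5% for H3K27me3 and from 80.0% to 92.3% for Mef2c. Outside the 5 densest windows the shares were 84.1% and 85.5%, and outside chromosome 17, which carries Ehmt2, 84.1% and 85.5%. Within 5 classes of mean H3K27me3 signal the share was 80.7% to 89.9%, against 55.8% to 69.1% at other pairs, and within 5 classes of Mef2c signal 81.4% to 89.7%, against 55.7% to 70.4%. In regions inside or within 2 kb of a protein-coding gene the shares were 81.5% and 84.8%, and in those away from genes 85.5% and 86.1%.

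**Figure D3:**
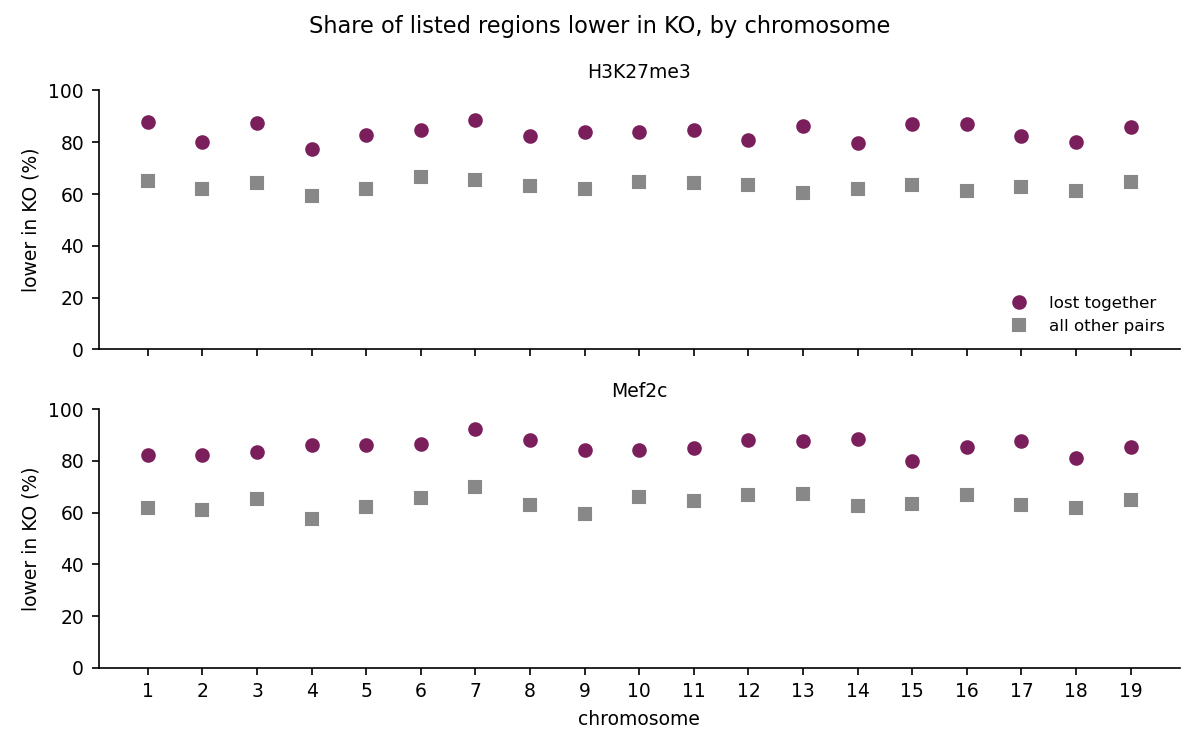
Share of listed H3K27me3 regions (top) and Mef2c regions (bottom) with a lower mean in KO, by chromosome, for regions lost together (circles) and all other pairs (squares). On every chromosome the circle lies above the square, between 77.4% and 88.5% for H3K27me3 and between 80.0% and 92.3% for Mef2c.

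The share lower in KO was highest where G9a and H3K9me2 fell most and lowest beyond the threshold. Neighbouring classes did not follow a steady order. Pairs with both KO values below both Cre values for both targets were placed by the larger of their 2 ratios. With that ratio at 0.25 or less, 94.6% of 37 H3K27me3 regions and 95.3% of 43 Mef2c regions were lower in KO. In the 5 classes from 0.25 to 0.5 the shares were 82.8% to 86.5% for H3K27me3 and 83.6% to 89.3% for Mef2c. In the 4 classes beyond the threshold they were 76.2% to 80.8% and 79.4% to 83.1%. The class of 0.25 or less holds few regions, and regions share the same libraries, so no test of an order was made.

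**Figure D4:**
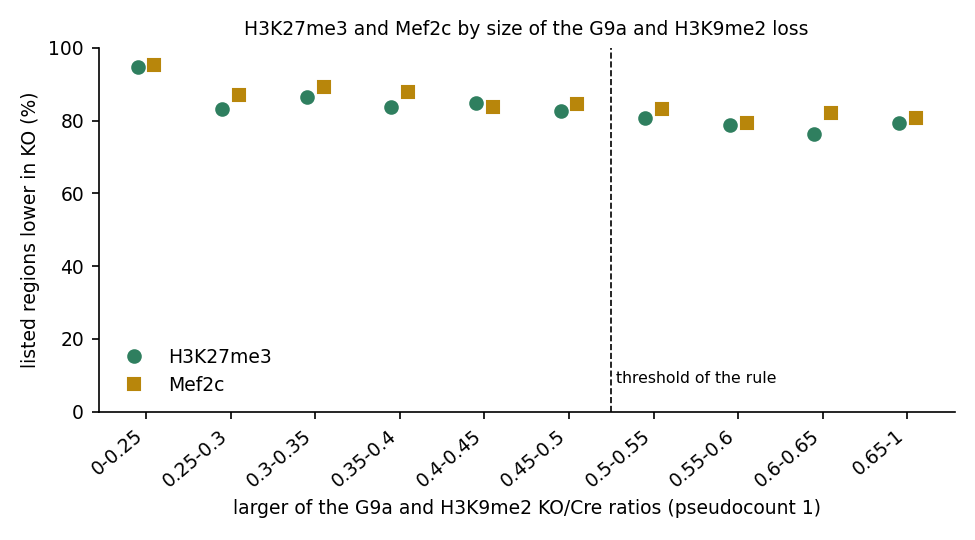
Share of listed H3K27me3 regions (circles) and Mef2c regions (squares) lower in KO for pairs with both KO values below both Cre values for G9a and H3K9me2, by the larger of the 2 ratios. The shares are 94.6% and 95.3% at ratios up to 0.25, 82.8% and 84.6% just below the dashed threshold of 0.5 and 80.8% and 83.1% just above it.

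No single H3K27me3 or Mef2c region at the regions lost together passed a test against the spread between libraries. By limma on log2(value + 1), adjusted over all listed regions, 6 H3K27me3 regions of the whole list (0.00119%) and 0 Mef2c regions (0%) had an adjusted p under 0.05, and 0 of either lay at the regions lost together. At an unadjusted p under 0.05, 385 of the 1716 H3K27me3 regions there were called, 366 lower in KO and 19 higher (21.3% lower, against 12.3% of the whole list, of which 15.3% was called in all and 3% as higher). For Mef2c 419 of 1901 were called, 401 lower and 18 higher (21.1% lower, against 8.62%, with 11.3% in all and 2.66% as higher). The lists hold regions chosen for a KO-Cre difference, which makes these unadjusted p-values too small. Without the first or the second Cre value the count at the regions lost together was 135 and 121 for H3K27me3 and 98 and 100 for Mef2c. Without the first or the second KO value it was 637 and 629 for Mef2c. Scaling the libraries to the same median moves the median of all log2 ratios by 0.28 for H3K27me3 and by 0.32 for Mef2c. It left 179 called lower and 51 higher for H3K27me3 and 199 lower and 43 higher for Mef2c at the regions lost together. Over the whole lists more regions were then called higher than lower (40056 against 24681, and 36964 against 20636), although the median limma log2 difference over all regions remained below 0, at -0.37 and -0.49. At the regions lost together that median was -0.66 and -0.90 after scaling.

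Values of single libraries are given for the strongest regions at which all 4 targets were listed. At chr7:11568501-11574950 H3K27me3 was 2523 and 1499 in Cre against 348 and 611 in KO, and Mef2c 2243 and 2020 against 413 and 910. Limma gave log2 differences of -2.07 ± 0.34 (SE) and -1.79 ± 0.41, with adjusted p of 0.322 and 0.399. At chr8:71803551-71806000, 18.7 kb from Gm5373, G9a was 808 and 949 against 360 and 128, H3K9me2 477 and 972 against 202 and 191, H3K27me3 2038 and 1764 against 437 and 592, and Mef2c 969 and 1176 against 265 and 196. At chr8:55346601-55349200, 17.105 kb from the predicted gene Gm51591, G9a was 926 and 1549 against 263 and 124, H3K9me2 1284 and 1135 against 372 and 381, H3K27me3 1425 and 1555 against 339 and 418, and Mef2c 602 and 1017 against 175 and 357. These regions were chosen for a high -log10 p in all 4 lists, so that their separation is a description. In Gm7827 H3K27me3 was 3338 and 3565 against 1452 and 1468, a limma log2 difference of -1.24 ± 0.18 (SE, adjusted p 0.322), and Mef2c 1912 and 1724 against 482 and 649. At chr17:13404951-13408950, near Tcp10c, Mef2c differed most among these 5 regions, 829 and 1140 against 115 and 179 (log2 difference -2.75 ± 0.43, limma adjusted p 0.399), and H3K27me3 was 1982 and 2002 against 740 and 728. All 4 antibodies gave high values in Cre at these regions, and the level of the input libraries there is not analysed here.

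**Figure D5:**
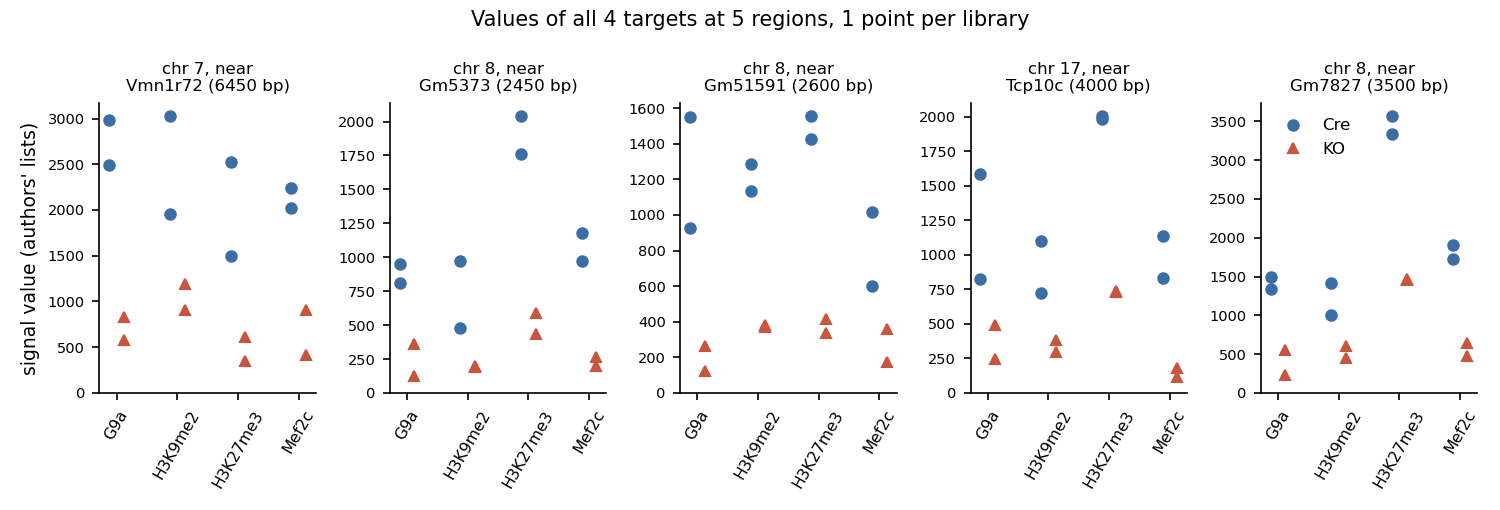
Deposited values of G9a, H3K9me2, H3K27me3 and Mef2c in each Cre library (circles) and KO library (triangles) at the 5 regions with the highest smallest -log10 p among those listed for all 4 targets, each panel on its own axis from 0. In each panel the KO values of a target lie below its Cre values, for example 348 and 611 against 2523 and 1499 for H3K27me3 near Vmn1r72.

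Among the strongest of the promoters by the smaller -log10 p, 2 had all 4 targets listed, and both were lower for all 4. The other promoters were not read for this. H3K27me3 and Mef2c were both lower at 72.0% of the 561 regions with all 4 listed. At Gm5373 (chr8:71856701-71859600) H3K27me3 was 1792 and 2393 in Cre against 486 and 979 in KO, and Mef2c 1330 and 1385 against 551 and 568. At Col17a1 (chr19:47690901-47692400) H3K27me3 was 567 and 477 against 332 and 274, and Mef2c 241 and 215 against 119 and 109. The limma log2 differences at Col17a1 were -0.78 ± 0.37 (SE) and -0.99 ± 0.51, with adjusted p of 0.329 and 0.399. The window of Zap70, a kinase of T cell receptor signalling, lay in a region (chr1:36764051-36765400) where H3K27me3 was 596 and 572 against 364 and 217, with no Mef2c region listed. None of these differences passed the adjusted threshold.

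A minority of the regions went the other way. Npr1, the receptor of atrial natriuretic peptide, held a region (chr3:90453251-90454050) with G9a values of 158 and 175 against 10 and 96 and H3K9me2 values of 170 and 56 against 45 and 42. Mef2c there was higher in KO, at 91 and 77 in Cre against 228 and 416 in KO, a limma log2 difference of 1.87 ± 0.54 (SE, adjusted p 0.399). In Dclk2, a doublecortin-like kinase (chr3:86829351-86829850), G9a was 86 and 133 against 0 and 16 while H3K27me3 was 3 and 31 against 188 and 156, a limma log2 difference of 3.93 ± 1.22 (adjusted p 0.322). At both genes the targets of the rule and the target outside it changed in opposite directions without overlap between the genotypes. Both KO values lay above both Cre values at 8.36% of the Mef2c regions at the regions lost together, against 23.3% of the whole list. For H3K27me3 these shares were 10.2% and 22.6%. At chr12:11440501-11441350, 3.923 kb from Vsnl1, the other targets themselves split, with H3K27me3 at 72 and 50 against 236 and 218 and Mef2c at 89 and 119 against 30 and 26. Of the 561 regions with all 4 listed, 78 (13.9%, against 18.1% of such pairs in all) had H3K27me3 higher and Mef2c lower. The reverse was found at 64 (11.4%, against 17.5%). In Kcnq1, a potassium channel of cardiac repolarisation, Mef2c was 16 and 24 against 41 and 84 at a region (chr7:143180601-143181250) that had lost G9a (189 and 75 against 21 and 64).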

How the data were processed

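G9a, H3K9me2, H3K27me3 and Mef2c were each measured in 2 Cre and 2 KO libraries. The tools named per the submitters' processing notes are BWA 0.7.10-r789 and SAMtools 1.1, with the build mm10 (GRCm38). The authors deposited 4 region lists, 1 per target, in which each region has 4 signal values and a -log10 p from their test of KO against Cre, at least 2 in each list. The sources used here do not give the region caller, the scale and normalization of the signal or the use of input. The deposited signal was therefore not treated as counts, and depth and its precision are unknown. The order of the values, Cre before KO, comes from the list names, and they carry no replicate number. Log2 ratios used a pseudocount of 1. Each of the H3K27me3 and Mef2c lists was fitted alone in limma 3.58.1 (R 4.3.3), on log2(value + 1), with a trend and Benjamini-Hochberg adjustment, two-sided, after the script was tested on simulated data. An exact test of 2 values against 2 cannot go below p = 0.333. Overlaps were computed in Python 3.11.15. Gene spans and promoter windows are from RefSeq GRCm38.p6, without exons. Regions named are the 12 near genes with the highest smaller -log10 p of G9a and H3K9me2, the lowest ratios, the longest, those at the threshold, those at ends of listed genes, and the strongest for H3K27me3, Mef2c and all 4 targets. List genes with a region in the span, and the promoters shown, were named after their values were seen. The regions and gene lists were chosen with earlier results of these data known.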

Additional observations from a re-analysis of the deposited data

How the results depend on the processing

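The number of regions lost together was 12715 at a reciprocal overlap of at least 25%, 2390 at 75%, 206 at a ratio of 0.25 or less, 18242 at 0.67 and 2461 with a -log10 p of at least 10 in both lists. Leaving out 1 library gave 9817 to 14274. The shares lower in KO were taken at the 7472 regions of the main rule. Except for a subset of 2461, only the H3K27me3 or Mef2c side was changed. The share of H3K27me3 regions lower in KO was 81.9% at 25% overlap with the G9a region and 80.5% at any overlap. It was 90.6% where the H3K27me3 -log10 p was 5 or more. For the 2461 strongest regions lost together (chosen after seeing the data) it was 87.1%, and without 1 H3K27me3 library 81.7% to 83.3%. For Mef2c these were 82.6%, 79.9%, 91.9%, 89.3% and 83.9% to 84.8%. By limma, H3K27me3 regions of the whole list with an adjusted p under 0.05 numbered 14 with a pseudocount of 10, 12 with a mean of at least 50, 2 with scaled libraries and 0 to 2 without 1 library. For Mef2c there was 1 with a pseudocount of 10 and 0 in every other setting run. At an unadjusted p under 0.05, leaving out 1 library gave 33738 to 102247 H3K27me3 regions and 26290 to 115017 Mef2c regions, and at the regions lost together 121 to 499 and 98 to 637, where scaling gave 230 and 242. The share touching any annotated gene was 46.5%. The share at gene ends was 3.73% for 1 kb, 12.6% for 5 kb, and 1.37% for promoter windows, added after seeing the data. The lone library of a genotype was assumed to vary like the others. Direction and majority held in every setting run for the shares, but no share was run on sets holding regions outside the 7472. No paired analysis was possible because the deposited values carry no replicate number. Depth is unknown, so no limit from it can be given.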
